A study of Mus musculus with 15 samples.

Results

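V338Y mice were compared with wild-type (WT) mice at 3 mo of age in quadriceps muscle. By their labels, 4 mice carried the MRPS5 V338Y genotype and 4 carried MRPS5 WT, and all 8 were of the C57BL/6 background. They are 8 of the 15 mice of the series, whose other 7 mice were 19 mo old (4 V338Y and 3 WT). The methods describe the mutants as homozygous animals of a transgenic strain, so the 4 mutant mice stand for a single mutant line. The mutation is present in every tissue of these mice and not in muscle alone. Of 39179 genes listed, 13333 were tested, those that reached 10 counts in 50% or more of the 3 mo mice of either genotype.

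MRPS5 is a protein of the small subunit of the mitochondrial ribosome, which translates the few proteins encoded by mitochondrial DNA, all of them parts of the respiratory chain and the ATP synthase. The V338Y exchange is of the ribosomal ambiguity type, which lowers the accuracy with which tRNAs are selected. Skeletal muscle is made of long-lived fibers that depend on mitochondria for sustained work, and for that reason misreading in this organelle is studied there.

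The changed residue lies in the coding part of exon 11 of 12 of Mrps5, on the plus strand of chromosome 2. The sequence below is the GRCm38 reference at chr2:127602429-127602491 and is shown because it holds the site that separates the 2 groups. Capitals mark the valine codon that V338Y replaces, in a protein of 432 residues, chr2:127602459-127602461. The codon of the mutant allele was not read here.
Mrps5: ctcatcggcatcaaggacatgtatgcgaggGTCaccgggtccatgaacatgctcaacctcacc

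Mrps5 itself was counted at 22.5, 23.5, 24.5 and 25.9 CPM (a gene's counts relative to the library size after TMM normalization) in V338Y mice 1 to 4, and at 19.8, 22.0, 22.7 and 23.8 CPM in WT mice 1 to 4. The groups overlapped, with a log2 fold change of V338Y over WT of 0.12 (standard error, SE, 0.08, edgeR adjusted p = 0.665). A codon exchange need not alter the amount of the transcript, so this level does not check the labels.

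Total counts ran from 9253836 to 18968132 per mouse, and titin (Ttn) took 13.3 to 16.4% of them. Transcripts of skeletal muscle fibers, the labelled tissue, summed to between 256000 and 308000 CPM in the 8 mice. The methods name the 3 mo animals as female. Ddx3y of the Y chromosome was at 152 to 189 CPM in all 8 mice and Xist, the RNA of the inactive X, at no more than 0.537 CPM. In the 19 mo mice Xist was at 541 to 699 CPM and Ddx3y at no more than 0.0884 CPM. All 3 mo mice were alike in this, so it does not separate the genotypes within this age.

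Several mice stood apart from their group in transcripts of other tissues. Ucp1, the uncoupling protein that defines brown fat, was at 307 CPM in WT mouse 1, at 34.5, 2.51 and 1.30 CPM in WT mice 4, 2 and 3, at 3.98 CPM in V338Y mouse 1 and at 0 in V338Y mice 2 to 4. Secretory transcripts of the seminal vesicle (8 genes) summed to 761 CPM in WT mouse 2, 334 CPM in V338Y mouse 4, 47.3 CPM in WT mouse 4, 5.04 CPM in WT mouse 1 and at most 0.124 CPM in the others. Liver transcripts (10 genes) summed to 480 CPM in WT mouse 3, 136 CPM in WT mouse 2 and 120 CPM in V338Y mouse 4, against 4.94 to 62.6 CPM in the other 5 mice. The seminal vesicle and liver lists were added after the data were seen. Mice of both genotypes carried such transcripts, and the highest brown fat level was in WT mouse 1. All 10 liver genes had a log2 fold change below 0, with a median of -1.72 and 1 with an edgeR unadjusted p under 0.05. Without WT mouse 1 their median was -2.09, with 9 under that threshold. Over all genes the share under it was 9.7% with all mice and 9.09% without WT mouse 1. The liver sums of the groups still overlapped without that mouse, with WT mouse 4 at 48.3 CPM and V338Y mouse 4 at 120 CPM. These genes were read in the same mice and are not independent, so their count is a description. The 8 seminal vesicle genes were all lower in V338Y mice too, with a median of -1.43 and 0 under that threshold in either fit. In whole tissue, fewer cells of a type and less RNA per cell cannot be told apart. The plot of marker levels by mouse shows these lists.

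**Figure D1:**
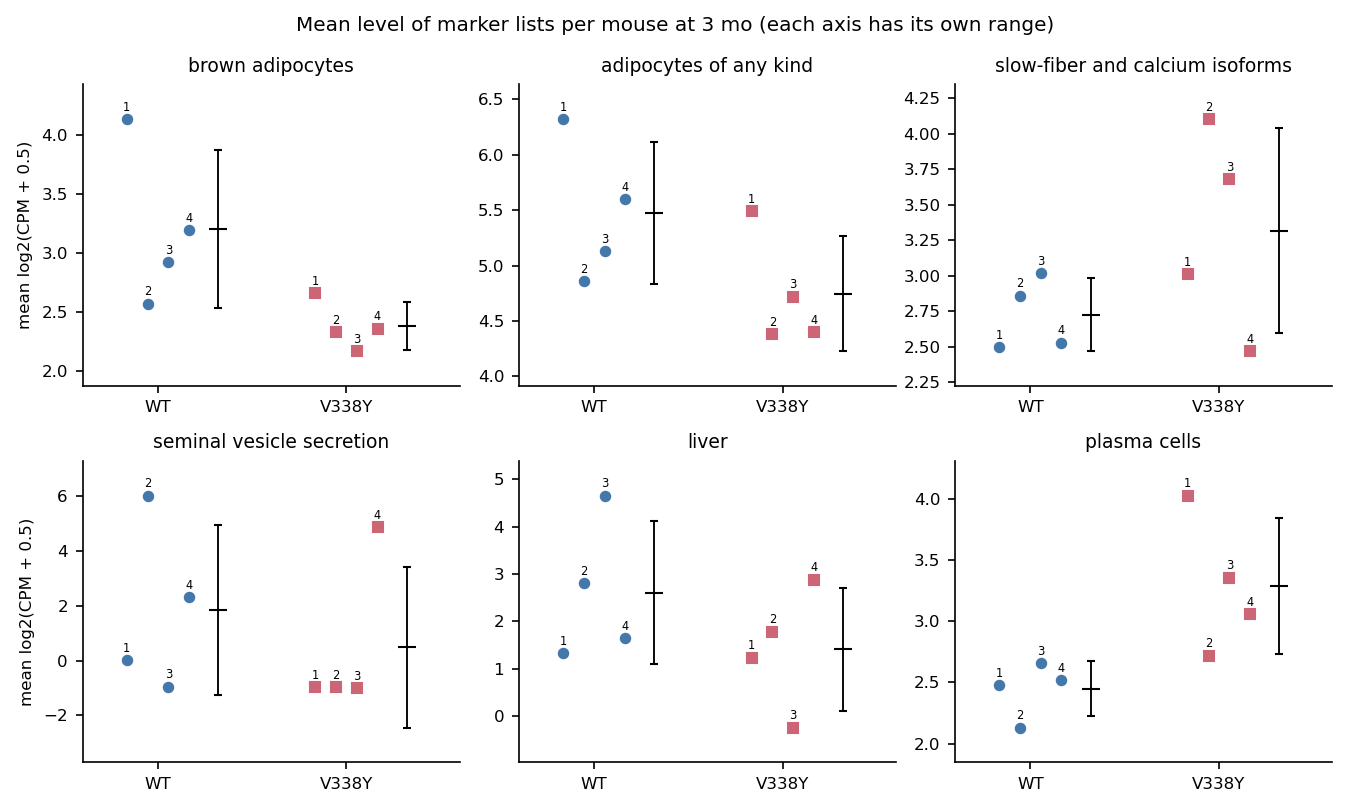
Mean log2(CPM + 0.5) of 6 marker lists in each 3 mo mouse, WT as circles and V338Y as squares, numbered by mouse, with mean and SD of each group (n = 4); each panel has its own vertical range. WT mouse 1 was highest for brown adipocytes (4.13), WT mouse 2 for seminal vesicle, WT mouse 3 for liver, V338Y mice 2 and 3 for slow-fiber isoforms (4.10 and 3.68) and V338Y mouse 1 for plasma cells.

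The genome-wide difference between the genotypes at 3 mo was small. With an edgeR adjusted p under 0.05, 10 of 13333 genes (0.075%) differed. V338Y mice had more of 5 transcripts (0.0375%), those of Eif3j2, Bloc1s6, 2310065F04Rik, Fahd2a and Gm14085. They had less of the other 5 (0.0375%), those of Eif3j1, Snap23, Chp1, Gbe1 and Haus2. An unadjusted p under 0.05 was reached by 1293 genes (9.7%), 670 higher (5.03%) and 623 lower (4.67%) in V338Y mice. The values of the 4 V338Y and 4 WT mice did not overlap for 642 genes (4.82%), of which 349 (2.62%) were higher and 293 (2.2%) lower in V338Y mice. Over all genes tested the median log2 fold change was -0.0026, 49.3% of genes were higher in V338Y mice, and the median absolute log2 fold change was 0.112 with a median SE of 0.13. An absolute log2 fold change over 1 was found for 294 genes (2.21%).

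**Figure D2:**
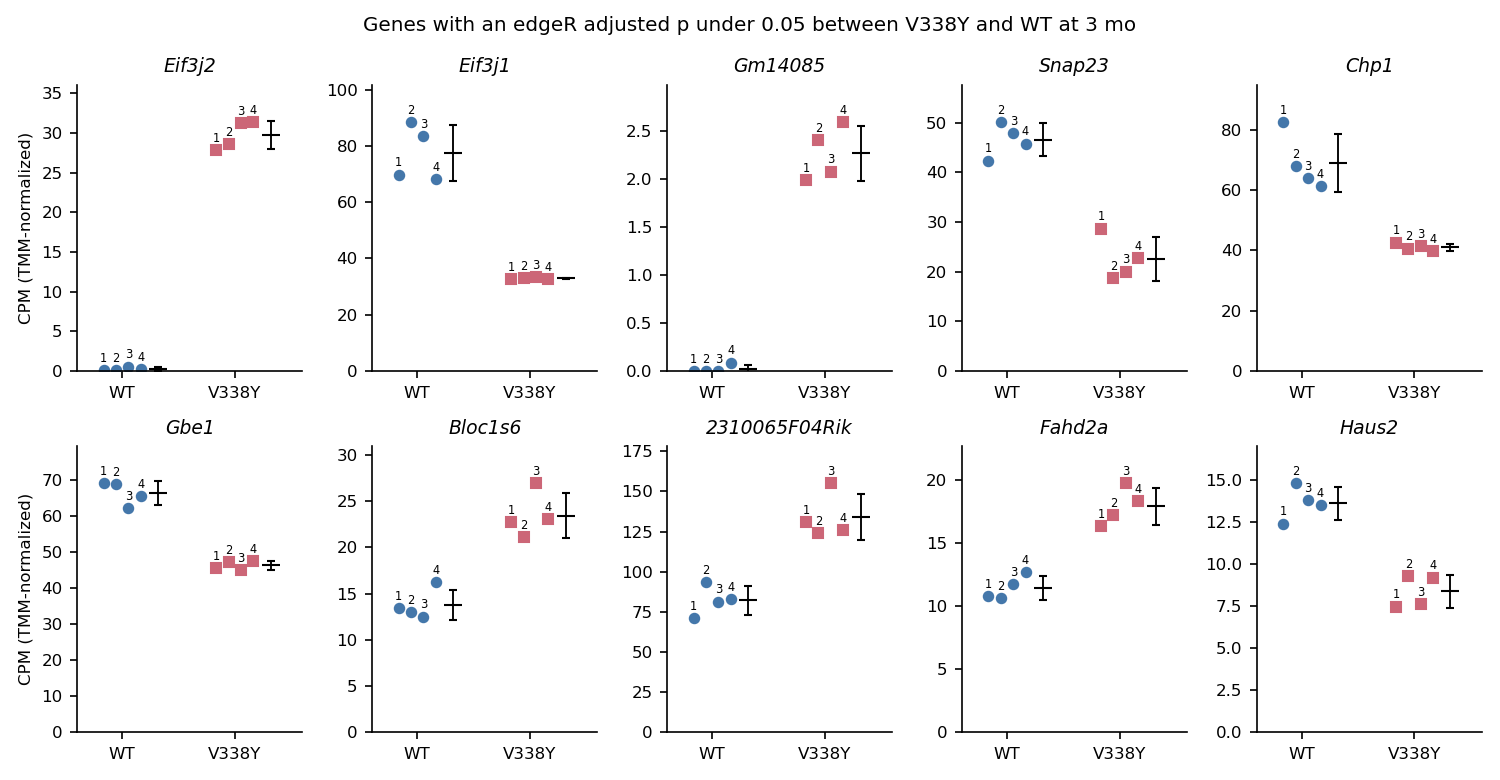
CPM after TMM normalization of the 10 genes with an edgeR adjusted p under 0.05 in each 3 mo mouse, WT as circles and V338Y as squares, numbered by mouse, with mean and SD of each group (n = 4); every axis starts at 0. The groups do not overlap for any of the 10 genes, and Eif3j2 and Gm14085 are near 0 in WT mice.

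The smallest p-value was that of Eif3j2, a second gene for the j subunit of translation initiation factor eIF3, which helps the small cytosolic ribosomal subunit bind mRNA. It was counted at 27.8, 28.6, 31.2 and 31.4 CPM in V338Y mice 1 to 4 and at 0.0853, 0.132, 0.556 and 0.254 CPM in WT mice 1 to 4. All 4 V338Y mice were thus far above all 4 WT mice, and the log2 fold change was 6.72 (SE 0.23, edgeR adjusted p = 1.5e-07). Eif3j1, the main gene for this subunit, went the other way, with 32.7, 32.9, 33.3 and 32.7 CPM in V338Y mice against 69.8, 88.6, 83.5 and 68.2 CPM in WT mice. It fell by 1.24 on the log2 scale (SE 0.09, edgeR adjusted p = 0.00033), and the V338Y mice were closer to each other than the WT mice were. The 2379 bases of the Eif3j2 transcript align to that of Eif3j1, which has 5413 bases, with 99.4% identity, 4 mismatches and 10 gap positions. Reads of Eif3j2 and of the matching part of Eif3j1 can be split only at few bases. The separate values of both genes are uncertain to that extent. Summed over both genes, the level was 60.4, 61.5, 64.5 and 64.0 CPM in V338Y mice and 69.9, 88.7, 84.0 and 68.4 CPM in WT mice. The sum remained lower in every V338Y mouse than in any WT mouse, at 62.6 ± 1.97 against 77.8 ± 10.1 CPM (SD, n = 4 each). Of the 59 cytosolic translation factors tested, these were the only ones to pass the adjusted threshold.

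Eif3j2 lies at chr18:43475418-43477796 and Eif3j1 at chr2:122028546-122056598 (GRCm38). Gm27325, annotated as a miRNA gene and lying inside Eif3j2 on the same strand, had 41 counts in V338Y mice and 0 in WT mice, at least 14.0-fold higher against a floor of 3 counts over the group. Reads of Gm27325 and Eif3j2 cannot be told apart by strand, and its edgeR adjusted p was 0.0802. In 19 mo mice, which the fit at 3 mo did not use, Eif3j2 had a log2 fold change of 5.96 (edgeR adjusted p = 3.9e-06) and Eif3j1 of -1.70 (edgeR adjusted p = 0.0046).

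Gm14085, a gene related to the nucleoside transporter gene Slc28a2, was detected almost only in V338Y mice. It was at 1.99, 2.41, 2.08 and 2.596 CPM in V338Y mice 1 to 4 and at 0, 0, 0 and 0.0846 CPM in WT mice, which is 115 counts against 1. The ratio of these counts was 118 with a 95% exact counting interval of 20.7 to 4700, and the edgeR adjusted p was 0.00051. Gm14086, annotated as an unprocessed pseudogene, lies within the bounds of Slc28a2 or overlaps it on the same strand. It had 0 counts in V338Y and 32 in WT mice, at least 10.4-fold lower against a floor of 3 counts over the group (edgeR adjusted p = 0.0894). Reads of Gm14086 and Slc28a2 cannot be told apart by strand. Transcripts of Gm14085 and Slc28a2 share 95.9% of aligned bases, and the sum of Gm14085, Gm14086 and Slc28a2 was 13.1 ± 0.773 CPM in V338Y and 15.7 ± 2.11 CPM in WT mice (SD, n = 4 each).

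Among the other down-regulated genes, Snap23, a SNARE protein of vesicle fusion that also serves the delivery of glucose transporters to the cell surface, was at 28.7, 18.7, 19.99 and 22.7 CPM in V338Y mice and 42.4, 50.2, 47.9 and 45.8 CPM in WT mice. It fell by 1.04 on the log2 scale (SE 0.13, edgeR adjusted p = 0.0192). Chp1, a calcineurin B-like partner of sodium-proton exchangers, was at 42.5, 40.5, 41.4 and 39.7 CPM against 82.6, 67.8, 63.9 and 61.3 CPM, highest in WT mouse 1. It fell by 0.75 (SE 0.10, edgeR adjusted p = 0.0202), and by 0.65 without WT mouse 1. Haus2, a subunit of the augmin complex of the mitotic spindle, was at 7.47, 9.27, 7.64 and 9.19 CPM against 12.4, 14.8, 13.8 and 13.5 CPM. It fell by 0.71 (SE 0.11, edgeR adjusted p = 0.0497), at the edge of the threshold. Haus2 overlaps Lrrc57, and Eif3j1 overlaps Spg11, each on the opposite strand. The strand setting of the counting is not given in the sources used here, so reads of these partners may not be separable.

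Gbe1, the glycogen branching enzyme, was the only down-regulated gene off chromosome 2. It was at 45.6, 47.3, 45.1 and 47.6 CPM in V338Y mice and 69.1, 68.8, 62.2 and 65.5 CPM in WT mice and fell by 0.52 on the log2 scale (SE 0.07, edgeR adjusted p = 0.0202). It lies at chr16:70313949-70569716. It was the only called gene among 18 genes of glycogen and glucose transport, of which 2 were lower and 0 higher with an unadjusted p under 0.05 (11.1% in all), and the median log2 fold change of the list was -0.08. Phka1, a regulatory subunit of the kinase that activates glycogen phosphorylase, had a log2 fold change of -0.28 (SE 0.07, edgeR adjusted p = 0.304) without passing. At 19 mo Gbe1 had a log2 fold change of 0.23 (edgeR adjusted p = 0.88).

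The remaining up-regulated genes had smaller fold changes. 2310065F04Rik, known as linc-MYH, is a long noncoding RNA of the fast myosin heavy chain locus (chr11:67112461-67120080). It was at 131, 124, 155 and 126 CPM in V338Y mice and 71.0, 93.3, 81.3 and 82.9 CPM in WT mice, a log2 fold change of 0.71 (SE 0.10, edgeR adjusted p = 0.0284). Bloc1s6, a subunit of the BLOC-1 complex of lysosome-related organelles, was at 22.7, 21.1, 26.9 and 23.04 CPM against 13.4, 13.0, 12.5 and 16.2 CPM, a log2 fold change of 0.77 (SE 0.11, edgeR adjusted p = 0.0284). Fahd2a, a protein with a fumarylacetoacetate hydrolase domain, was at 16.3, 17.2, 19.7 and 18.3 CPM against 10.8, 10.6, 11.7 and 12.7 CPM, a log2 fold change of 0.64 (SE 0.09, edgeR adjusted p = 0.0377). The lowest V338Y mouse was above the highest WT mouse in each of the 3 genes.

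Of the 10 genes, 7 lie on chromosome 2 within 10 Mb of Mrps5, which spans chr2:127587222-127606829. All 7 lie on its side of lower coordinates, at the distances given here with a minus sign. They were Chp1 (chr2:119547697-119587027, -8.04 Mb), Snap23 (chr2:120567671-120601255, -7.02 Mb), Haus2 (chr2:120609383-120621560, -6.98 Mb), Eif3j1 (-5.56 Mb), Gm14085 (chr2:122484941-122528040, -5.1 Mb), Bloc1s6 (chr2:122738503-122749475, -4.85 Mb) and Fahd2a (chr2:127436215-127444565, -0.151 Mb). The window of 10 Mb was set after these values were seen, and its values are a description. Within it, 57 of 184 genes tested (31.0%) had an unadjusted p under 0.05, 35 higher and 22 lower in V338Y mice, and the groups did not overlap for 45 (24.5%). By distance from Mrps5 the share was 21.1% at 0 to 5 Mb (20 of 95 genes), 41.6% at 5 to 10 Mb (37 of 89), 10.5% at 10 to 20 Mb (6 of 57), 10.3% at 20 to 40 Mb (29 of 282) and 8.2% beyond 40 Mb (45 of 549). On all other chromosomes together it was 9.45% (1145 of 12117 genes), and among the 18 other autosomes and the X chromosome it was lowest on chromosome 17 (6.51%) and highest on chromosome 6 (80 of 667 genes). With each of the 8 mice left out in turn, 48 to 58 genes of the window had an unadjusted p under 0.05.

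**Figure D3:**
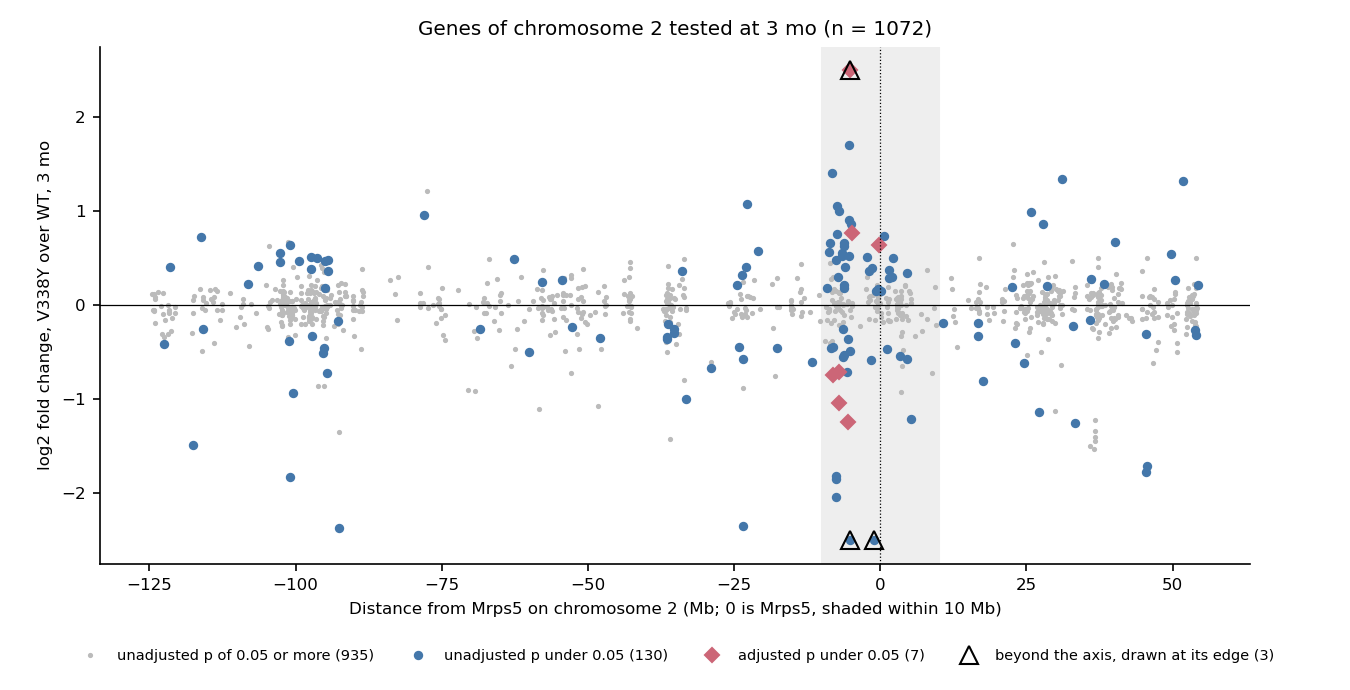
Log2 fold change of V338Y over WT at 3 mo for the 1072 tested genes of chromosome 2 against their distance from Mrps5 in Mb, with 10 Mb on either side shaded; grey dots have an unadjusted p of 0.05 or more, blue dots a lower one, diamonds an edgeR adjusted p under 0.05, and triangles mark 3 genes drawn at the edge of the axis. All 7 diamonds and 57 of the 137 genes with an unadjusted p under 0.05 lie in the shaded 10 Mb.

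Other genes of this stretch had separated groups without reaching the adjusted threshold. Pla2g4e, a cytosolic phospholipase A2, was at 65.8, 52.7, 52.1 and 60.4 CPM in V338Y mice and 19.1, 22.4, 32.4 and 36.9 CPM in WT mice, a log2 fold change of 1.06 (SE 0.18, edgeR adjusted p = 0.0894). Pla2g4b, of the same family, went the other way with a log2 fold change of -2.04 (SE 0.40, edgeR adjusted p = 0.137), but it overlaps the gene Gm28042 (-1.85, SE 0.30, edgeR adjusted p = 0.0746), and their reads cannot be told apart with certainty. Hypk, a partner of the N-terminal acetyltransferase NatA, had a log2 fold change of 0.63 (SE 0.10, edgeR adjusted p = 0.0746). It overlaps Serf2 on the same strand and Serinc4 on the opposite one, so its reads may not be separable from theirs. Ccndbp1, a cyclin D-binding protein, had 0.55 (SE 0.10, edgeR adjusted p = 0.107). Hypk and Gm28042 were called in 6 each of the 14 alternatives that left no single mouse out, and Pla2g4e, Pla2g4b and Ccndbp1 in 3 each.

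Outside this stretch, the uncalled genes with separated groups and the smallest unadjusted p are given here with edgeR's quasi-likelihood test. G0s2, an inhibitor of the lipase ATGL, was at 6.82, 8.82, 6.79 and 7.79 CPM in V338Y mice and 21.1, 11.9, 20.6 and 31.5 CPM in WT mice, a log2 fold change of -1.50 (SE 0.25, edgeR adjusted p = 0.0802). Acsl1, which activates long-chain fatty acids, was at 348.3, 338.5, 332.8 and 271.2 CPM against 506.9, 389.1, 487.1 and 470.2 CPM, a log2 fold change of -0.52 (SE 0.10, edgeR adjusted p = 0.137). Slc37a4, the glucose-6-phosphate transporter, had 0.56 (SE 0.10, edgeR adjusted p = 0.0832) and Pank1, a kinase of coenzyme A synthesis, -0.68 (SE 0.13, edgeR adjusted p = 0.145). Of the 14 alternatives that left no single mouse out, G0s2 and Slc37a4 were called in 4 each, and Acsl1 and Pank1 in 3 each. CAAA01147332.1, a protein-coding gene, was at 3.22, 3.56, 3.78 and 3.46 CPM in V338Y mice and 5.97, 6.61, 5.01 and 5.5 CPM in WT mice. It was called in 1 of them. Of genes with other roles, Fam83d of the mitotic spindle had 1.34, Ddah1, which degrades methylated arginine, 1.034, the potassium channel subunit Kcng4 0.84, the exocyst subunit Exoc7 0.78, the matrix protein Mxra8 0.60, Dok7 of the neuromuscular junction -0.44, Amotl2 of cell junctions -0.41, and Cd59b, an inhibitor of the complement pore, -2.35 (edgeR adjusted p from 0.0802 to 0.12 for these 8).

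Several brown fat transcripts were far higher in WT mouse 1 than in the other mice. Of the 19 brown adipocyte markers tested, 9 were at their highest of the 8 mice in WT mouse 1, as were 13 of the 15 markers of adipocytes of any kind. Cidea, a lipid droplet protein of brown fat, was at 64.5, 1.26, 4.45 and 10.7 CPM in WT mice 1 to 4 and 7.90, 1.07, 0.772 and 0.541 CPM in V338Y mice 1 to 4. Gk, glycerol kinase, was at 35.7, 3.04, 3.21 and 8.29 CPM in WT and 3.98, 2.58, 2.08 and 1.41 CPM in V338Y mice. Elovl6, a fatty acid elongase, was at 26.1, 0.86, 1.54 and 2.62 CPM in WT and 2.36, 0.624, 0.849 and 1.51 CPM in V338Y mice. Ucp1 had a log2 fold change of -6.03 (SE 1.72, edgeR adjusted p = 0.375), which was -3.29 without WT mouse 1. For Cidea it was -2.73 with and -0.90 without that mouse, for Gk -2.22 and -0.87, and for Elovl6 -2.43 and -0.24. None of the brown adipocyte markers was called by edgeR's quasi-likelihood test with all mice under the main settings. The replicate block called 2, Ucp1 and Elovl3. DESeq2 and the fit without a filter on low counts called 1 each, Pank1, which was at 8.87 to 19.8 CPM in the 8 mice. The likelihood ratio test called 2, Pank1 among them. Cidea, Gk and Otop1 were called in 0 of these alternatives. WT mouse 4, with the second highest Ucp1, was kept in these fits.

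Without WT mouse 1, 14 of 13276 genes (0.105%) had an edgeR adjusted p under 0.05, and 8 of these were among the 10 called with all mice. Bloc1s6 (edgeR adjusted p = 0.06) and Fahd2a (edgeR adjusted p = 0.0866) were lost, with log2 fold changes of 0.76 and 0.62. Akap6, an anchor of protein kinase A at the nuclear envelope and sarcoplasmic reticulum, was gained with 0.72 (edgeR adjusted p = 0.0312), Slc37a4 with 0.65 (edgeR adjusted p = 0.0312), Tnfrsf19, a receptor of the TNF family, with 0.66 (edgeR adjusted p = 0.0495), and Fam83d with 1.56 (edgeR adjusted p = 0.0423). Pcna and its processed copy Pcna-ps2 made up the 6 gains. An unadjusted p under 0.05 was reached by 1207 genes (9.09%), 4.57% higher and 4.52% lower in V338Y mice, of which 911 were shared with the comparison of all mice, 70.5% of that comparison's genes. For 73 genes the log2 fold change moved by more than 0.5 when WT mouse 1 was left out. Leaving out each of the 8 mice in turn gave 3 to 14 called genes, 867 to 1368 genes with an unadjusted p under 0.05, and 6 to 120 genes moved by more than 0.5. Of the 1293 genes of the full comparison 57.0 to 74.8% were among them. In these counts WT mouse 1 thus lay inside the range of the other mice except for calls, where leaving it out gave the highest value. The lists of adipocytes of any kind, of lipid synthesis and of genes raised at 19 mo, given below, differed. For each of them leaving out WT mouse 1 gave the highest median of the 8 fits. Eif3j2, Eif3j1 and Gm14085 were called whichever mouse was left out, Snap23 in 6 of the 8 fits, Chp1 in 4, Gbe1 and 2310065F04Rik in 2, Bloc1s6 and Haus2 in 1, and Fahd2a in 0.

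Pcna, which encodes the sliding clamp of DNA replication, and its copy were both gained without WT mouse 1. Pcna was at 9.72, 8.64, 8.80 and 8.44 CPM in V338Y mice and 9.73, 14.3, 14.5 and 14.5 CPM in WT mice 1 to 4. Pcna-ps2 was at 1.24, 0.802, 0.772 and 0.865 CPM in V338Y mice and 0.768, 0, 0 and 0 CPM in WT mice. WT mouse 1 was like the V338Y mice in both genes, and with it included neither was called (edgeR adjusted p = 0.233 and 0.435). The sum of both was 9.82 ± 0.768 CPM in V338Y and 13.4 ± 1.95 CPM in WT mice (SD, n = 4 each). Pcna lies at chr2:132249162-132253314 on the minus strand and Pcna-ps2 at chr19:9283380-9284160 on the plus strand (GRCm38). Their transcripts are 99.2% identical over 781 bases with 6 mismatches. The 60-base stretch below, from base 396 of the Pcna transcript and base 117 of Pcna-ps2, is shown because its 2 mismatches, in capitals, are what a read there can be assigned by.
Pcna: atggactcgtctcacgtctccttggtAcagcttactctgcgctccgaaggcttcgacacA
Pcna-ps2: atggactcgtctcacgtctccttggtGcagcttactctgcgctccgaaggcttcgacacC

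Across pathways, 52 gene lists were described, of which 2 held a called gene (the cytosolic translation factors and the glycogen list) and 15 held no member with an unadjusted p under 0.05. The lists below are given as counts with an unadjusted p under 0.05 and as medians, against 5.03% higher, 4.67% lower and a median of -0.0026 over all genes. The 19 brown adipocyte markers tested had a median log2 fold change of -0.68 with 1 higher and 8 lower. Elovl3 and Otop1 were not tested without WT mouse 1, and over the 17 markers tested both ways the median was -0.25 with all mice (1 higher, 6 lower) and -0.24 without WT mouse 1 (1 higher, 5 lower). Of these 17, 5 (Ucp1, Cidea, Dio2, Gk and Acot11) moved up by more than 0.5 and 0 moved down, and the mean went from -1.10 to -0.65. Cpn2, Kng1 and Slc27a2 stayed at -2.22, -2.09 and -2.45 without WT mouse 1. These genes were highest in WT mouse 3, which also had the most liver transcripts, and Slc27a2 lies -1.03 Mb from Mrps5. Cox8b, Cox7a1 and Fabp3 were at 118 to 306 CPM in every mouse. Whether the median of this list follows brown fat was not tested. For markers of adipocytes of any kind the median was -0.81 with 7 of 15 lower, and -0.41 with 2 lower without WT mouse 1. Leaving out V338Y mouse 1 moved it the other way, to -1.19 with 12 lower. With any other single mouse left out it ran from -0.955 without WT mouse 2 (10 lower) to -0.607 without V338Y mouse 4 (4 lower). Adiponectin (Adipoq) was at 62.5, 22.99, 33.6 and 23.8 CPM in V338Y mice and 98.7, 32.1, 42.3 and 70.2 CPM in WT mice. V338Y mouse 1, like WT mouse 1, was high for it, and the groups overlapped.

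Lists of lipid synthesis also had medians below 0 that were closer to 0 without WT mouse 1. Glycerolipid and lipid droplet genes had a median of -0.54 with 2 of 25 higher and 9 lower, and -0.23 with 2 higher and 4 lower without WT mouse 1. Fatty acid synthesis and desaturation had -0.23 with 2 of 18 lower, and -0.09 with 0 lower without it. Of 43 genes that the study listed as raised in V338Y mice at 19 mo 42 were tested, and these had a median of -0.42 at 3 mo with 2 higher and 7 lower, and -0.15 with 1 higher and 2 lower without WT mouse 1. The study chose that list on the 19 mo mice of this series, not on the 3 mo mice. With any other single mouse left out, the glycerolipid median ran from -0.62 to -0.41. That of fatty acid synthesis then ran from -0.33 to -0.15 and that of the study's list from -0.55 to -0.42. How far fat cells account for these medians was not tested.

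**Figure D4:**
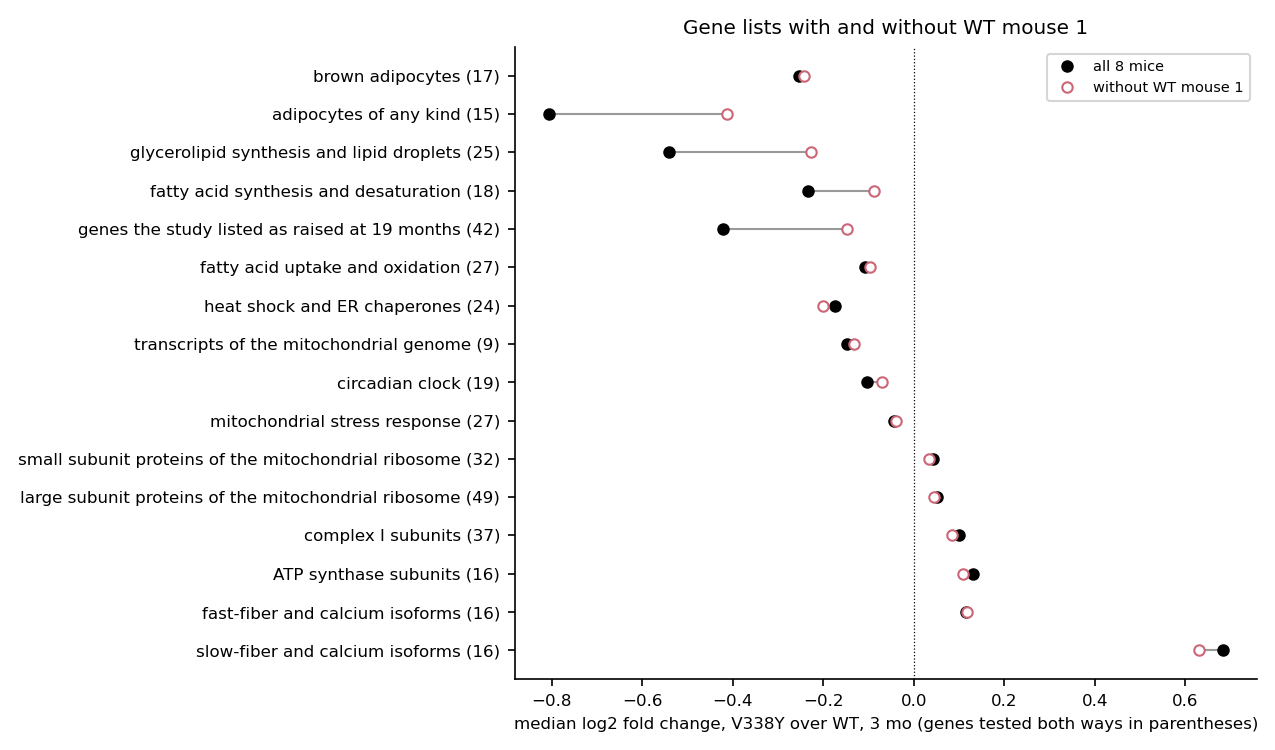
Median log2 fold change of V338Y over WT at 3 mo of 16 gene lists, with all 8 mice (filled) and without WT mouse 1 (open), over the genes tested both ways, whose number is in parentheses. The lists of adipocytes of any kind, of lipid synthesis and of genes raised at 19 mo move toward 0 without WT mouse 1, the brown adipocyte median moves from -0.25 to -0.24, while slow-fiber isoforms stay near 0.6 and fatty acid oxidation near -0.1.

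Fatty acid uptake and oxidation, which fibers carry out themselves, had a smaller median that WT mouse 1 moved little. Of 27 genes 24 were lower in V338Y mice, 6 of them and 0 of the higher ones with an unadjusted p under 0.05, and the median was -0.11. Without WT mouse 1 the median was -0.10 with 21 of 27 lower and 7 with an unadjusted p under 0.05. Other mice moved it more, to -0.04 without V338Y mouse 4, -0.07 without V338Y mouse 1, -0.05 without WT mice 1 and 3, and -0.28 with 27 of 27 lower without V338Y mice 2 and 3. Ppara, the nuclear receptor that drives these genes, was at 9.83, 10.2, 8.49 and 8.22 CPM in V338Y mice and 18.1, 15.3, 12.7 and 10.4 CPM in WT mice. Its log2 fold change was -0.62 (SE 0.16, edgeR adjusted p = 0.304). Lpin1, a phosphatidate phosphatase and coactivator of Ppara, was at 385, 408, 401 and 359 CPM against 404, 537, 592 and 512 CPM, a log2 fold change of -0.40 that was -0.49 without WT mouse 1 (edgeR adjusted p = 0.322 and 0.06). Lpl, lipoprotein lipase, was at 451, 354, 351 and 343 CPM against 596, 439, 448 and 461 CPM, -0.38 with and -0.26 without it.

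Slow-fiber isoforms were higher in V338Y mice as a list, and mice 2 and 3 carried this. Of 16 genes 15 were higher, 5 of them and 0 lower with an unadjusted p under 0.05, and the median was 0.68 (0.63 without WT mouse 1). Myh7, the slow myosin heavy chain, was at 1.07, 28.2, 25.4 and 0.865 CPM in V338Y mice and 1.54, 2.84, 4.94 and 0.677 CPM in WT mice, so only V338Y mice 2 and 3 were above the WT range. Without those 2 mice, a setting added after the data were seen, the median of the list was 0.02 with 2 genes higher and 1 lower. Tnni1, the slow troponin I, was at 4.41, 4.01, 3.86 and 0.541 CPM against 0.427, 0.794, 0.556 and 0.423 CPM, a log2 fold change of 2.53 (SE 0.51, edgeR adjusted p = 0.16) with V338Y mouse 4 in the WT range. Casq2, the slow calsequestrin, had 0.59 (SE 0.16, edgeR adjusted p = 0.365) and myoglobin (Mb) 0.58 (SE 0.14, edgeR adjusted p = 0.276).

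Fast-fiber isoforms had a smaller median difference. Of 16 genes 15 were higher in V338Y mice, 7 of them and 0 lower with an unadjusted p under 0.05, with a median of 0.12. Without WT mouse 1 the median was again 0.12 but 1 gene had an unadjusted p under 0.05. Myh4, the IIB heavy chain that dominates this muscle, was at 66200, 67900, 64400 and 62500 CPM in V338Y and 67400, 65500, 64500 and 58900 CPM in WT mice, a log2 fold change of 0.03 (SE 0.08, edgeR adjusted p = 0.937), and its sign turned without WT mouse 4. Myh1, the IIX chain, had 0.30 (SE 0.12, edgeR adjusted p = 0.469) and Myh2, the IIA chain, 0.40 (SE 0.17, edgeR adjusted p = 0.488). At 19 mo the median of the fast-fiber list was -0.31.

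Genes of the respiratory chain, the ATP synthase and the mitochondrial ribosome, most of them nuclear, had small median differences. Of 37 complex I subunits 33 were higher in V338Y mice, 6 of them and 0 lower with an unadjusted p under 0.05, and the median was 0.10, or 0.09 with 3 higher without WT mouse 1. Ndufa11, an accessory subunit, was at 77.1, 84.7, 84.4 and 74.3 CPM in V338Y mice against 65.5, 62.0, 71.7 and 64.6 CPM in WT mice, a log2 fold change of 0.28 (SE 0.07, edgeR adjusted p = 0.322). ATP synthase subunits had a median of 0.13 with 3 of 16 higher, and 0.11 with 1 higher without WT mouse 1. Without WT mouse 2 they had 0.10 with 0 higher, and complex I 0.07 with 3 higher. Without WT mouse 3 the medians were 0.15 with 5 higher and 0.13 with 8 higher. Subunits of complexes II to IV had 0.07 with 2 of 26 higher. The 9 tested transcripts of the mitochondrial genome had a median of -0.15 with 1 lower, mt-Cytb at -0.25 (SE 0.11, edgeR adjusted p = 0.499). That median ran from -0.26 without WT mouse 4 to -0.02 without WT mouse 2. Summed over the list, mitochondrial transcripts were at 21700 to 22700 CPM in V338Y mice and 20400 to 22000 CPM in WT mice. The negative median was thus not a lower total in V338Y mice. Nuclear and mitochondrial transcripts of the respiratory chain had medians of opposite sign, and no member of either passed edgeR's adjusted threshold. Proteins of the small mitoribosomal subunit had a median of 0.04 with 2 of 32 higher, and those of the large subunit 0.05 with 1 of 49 higher (0.03 and 0.03 without WT mouse 2, 0.07 and 0.08 without WT mouse 4). Among 33 genes of mitochondrial translation and tRNA charging, and among 25 of the citrate cycle, 0 had an unadjusted p under 0.05.

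Genes of the mitochondrial stress response had no common direction. Of 27 genes, 2 were higher and 4 lower in V338Y mice with an unadjusted p under 0.05, and the median was -0.04, or -0.0037 without V338Y mouse 4 and 0.03 without WT mice 1 and 3. Atf4, the transcription factor of that response, was at 153, 156, 144 and 149 CPM in V338Y mice and 147, 141, 178 and 154 CPM in WT mice, a log2 fold change of -0.04 (SE 0.08, edgeR adjusted p = 0.9) that turned positive without WT mouse 3. Chac1, a target of Atf4 at -8.24 Mb from Mrps5, had 1.41 (SE 0.40, edgeR adjusted p = 0.366), and Asns, another target, -0.86 (SE 0.33, edgeR adjusted p = 0.462). The secreted stress factors Fgf21 and Gdf15 had 3 and 4 counts in all 8 mice together and were not tested, so a difference in them was not detectable at this depth.

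Chaperones of the cytosol and the endoplasmic reticulum were mostly lower in V338Y mice. Of 24 genes 22 were lower, 6 of them and 0 higher with an unadjusted p under 0.05, and the median was -0.18, or -0.20 with 8 lower without WT mouse 1. It ran from -0.27 with 13 lower without V338Y mouse 1 to -0.10 with 3 lower without WT mouse 4. Dnajb1, a cochaperone of HSP70, was at 4.94, 5.61, 4.09 and 4.33 CPM in V338Y mice and 6.83, 6.81, 8.96 and 12.01 CPM in WT mice, a log2 fold change of -0.86 (SE 0.20, edgeR adjusted p = 0.217). Hspa8, the constitutive HSP70, was at 954, 847, 708 and 732 CPM against 877, 1090, 1010 and 1390 CPM, and the groups overlapped at V338Y mouse 1. In the list of circadian clock genes 3 of 19 were lower and 0 higher with a median of -0.10 (-0.04 without V338Y mouse 3), with Per2 at 11.3, 12.8, 12.5 and 13.6 CPM against 17.9, 14.5, 19.1 and 17.2 CPM (log2 fold change -0.46, SE 0.10, edgeR adjusted p = 0.209).

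Among markers of other cells, plasma cell transcripts were higher in V338Y mice. Ighm, the heavy chain of IgM, was at 224, 52.2, 131 and 96.2 CPM in V338Y mice and 42.8, 30.6, 39.1 and 52.4 CPM in WT mice, a log2 fold change of 1.62 (SE 0.36, edgeR adjusted p = 0.201). V338Y mouse 2 lay just under the highest WT mouse and V338Y mouse 1 was the highest, and the median of the 3 tested genes of this list, 1.62, was 0.87 without V338Y mouse 1. Fibroblast markers had a median of 0.18 with 12 of 12 higher and 3 with an unadjusted p under 0.05 (0.05 without WT mice 1 and 3), Fbn1, which builds microfibrils, at 0.52 (SE 0.16, edgeR adjusted p = 0.397). None of the 14 macrophage markers tested had an unadjusted p under 0.05, and the T and B cell markers summed to 0.926 to 2.49 CPM and were too low to test.

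The 19 mo mice were set beside these results as animals that the 3 mo fit had not used. At 19 mo 6 of 13833 genes (0.0434%) had an edgeR adjusted p under 0.05, among them Eif3j2, Eif3j1 and Gm14085, and 1235 (8.93%) an unadjusted p under 0.05, 6.17% higher and 2.75% lower in V338Y mice. Of the other called genes, Bloc1s6 had a log2 fold change of 0.78, Chp1 of -0.59, Haus2 of -0.47 and Fahd2a of 0.45 at 19 mo, in the direction seen at 3 mo, with edgeR adjusted p from 0.395 to 0.534. Snap23 had -0.14 at 19 mo (edgeR adjusted p = 0.801), and 2310065F04Rik -0.39 (edgeR adjusted p = 0.848). Pla2g4e had 1.09 (edgeR adjusted p = 0.395). The difference of the genotype effect between the ages, tested as an interaction in all 15 mice, reached an edgeR adjusted p under 0.05 for 0 of 14128 genes (0%), with 1361 (9.63%) under an unadjusted p of 0.05. DESeq2 called 26 genes in the same comparison. The ages also differ in Xist and Y-linked transcripts, and age and sex transcripts cannot be told apart in it.

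Near Mrps5 the direction at 3 mo was mostly that at 19 mo. Of the 55 genes within 10 Mb of Mrps5 that had an unadjusted p under 0.05 at 3 mo and were tested at 19 mo, 47 (85.5%) had the same sign at 19 mo, and 24 had an unadjusted p under 0.05 at both ages. Of 1158 such genes elsewhere with a position, 561 (48.4%) had the same sign, and 37 an unadjusted p under 0.05 at both. Across all genes tested at both ages, Pearson's r of the log2 fold changes was 0.825 within 10 Mb of Mrps5 (n = 179 genes, Spearman's rho 0.5) and -0.0594 elsewhere (n = 12859, rho -0.014). Without Gm14085 it was 0.61 (n = 178, rho 0.491). These values are across genes, which share the same 15 libraries and are not independent replicates.

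**Figure D5:**
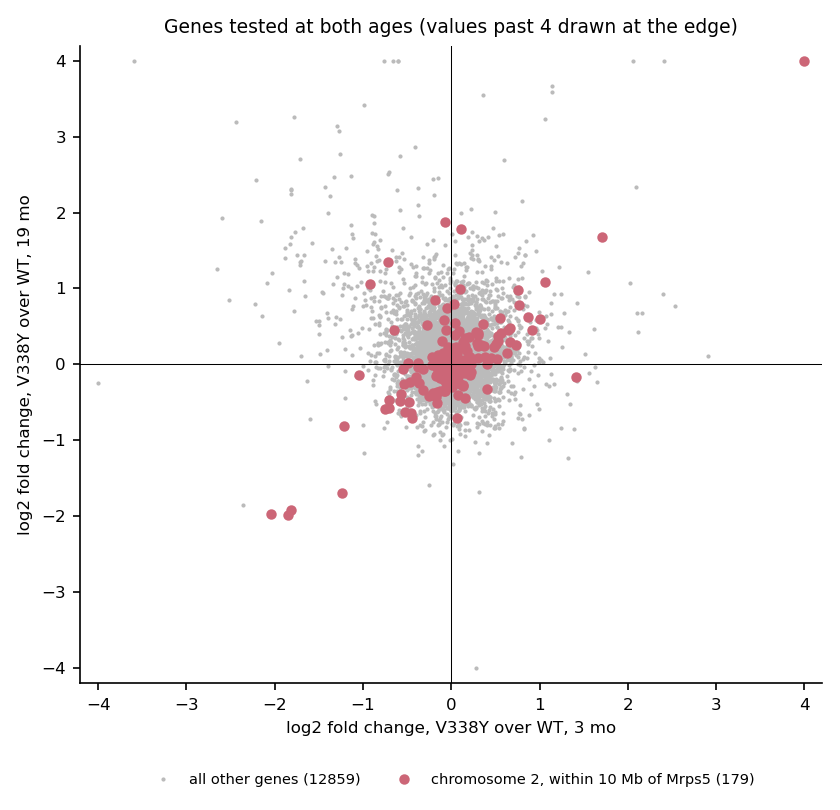
Log2 fold change of V338Y over WT at 19 mo against that at 3 mo for genes tested at both ages, with genes within 10 Mb of Mrps5 on chromosome 2 in red (179) and all others in grey (12859); values past 4 are drawn at the edge, where Eif3j2 and Gm14085 share the upper right corner. Most red points away from 0 lie in the lower left or upper right, while the grey points show no such slope (r of 0.825 and -0.0594).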

How the data were processed

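RNA of quadriceps muscle was extracted with TRIzol and sequenced as single-end reads from stranded TruSeq libraries. Per the study's methods the authors estimated gene abundance with RSEM on Ensembl genes, and they deposited 1 expected count per gene and mouse, here whole numbers without scaling for depth or length. RSEM divides reads that match several genes between them. The methods name assembly GRCm37, while the submitters' processing notes name GRCm38, CASAVA 1.8, bcl2fastq 1.8.4 and STAR 2.4.2a. Positions and symbols here are those of a GRCm38 annotation, which matched 37693 identifiers.

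Counts were analysed in R 4.3.3. Genes with 10 counts or more in 50% of the mice of either group entered edgeR 4.0.16 (TMM, quasi-likelihood test, Benjamini-Hochberg adjusted p under 0.05), fitted to the 3 mo mice. Fold changes are on the log2 scale and SEs are from the fit. The 19 mo mice and the age by genotype interaction were fitted likewise. Mouse numbers recur in both groups, but deviations of same-numbered mice did not correlate across all pairs (0.155, -0.00208, -0.17 and -0.16), so the numbers were not taken to pair mice. Nothing in the sources used here gives litters or batches, and p-values measure the spread between these mice. Floors are 3 counts, and counting intervals are at 95% and cover counting error only. In simulated 3 mo data (13145 genes) 48.5% of 1.5-fold, 90.9% of 2-fold and 93.8% of 4-fold changes were recovered, with 14 false calls. The simulated counts were drawn gene by gene at the fitted spread, without mice that stood apart. These shares need not hold for the real mice.

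Genes named are all called genes, the 10 higher and 10 lower uncalled genes with separated groups and the smallest p, list members with the smallest p, fixed key genes and sex-linked genes, genes called only without WT mouse 1, and genes by their excess in WT mouse 1. Partners named for overlap or likeness (Lrrc57, Spg11, Slc28a2, Serf2, Serinc4) and Ttn were added after values were seen. The comparison, its members and the gene lists were chosen with earlier results of these data known. Alternatives were other normalizations, filters and tests (DESeq2 1.42.0, limma 3.58.1 voom, likelihood ratio), the replicate block, each mouse left out, and pairs of mice left out, the last added after the data were seen. The metabolome and RT-PCR were not analysed here.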

Additional observations from a re-analysis of the deposited data

Results flagged for a closer look

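In 23 of 200 groups of 4 mice looked at (11.5%), 1 mouse lay apart from the other 3 by Dixon's ratio. Chance alone flags about 1 in 20 groups, but Ucp1, Cidea, Elovl3, Otop1, Gk and Elovl6 were named for their excess in WT mouse 1, so the share cannot be set against that rate. WT mouse 1 or V338Y mouse 1 stood apart in 16 of the 23. Pcna, Pcna-ps2 and Fam83d met the rule for genes called only without WT mouse 1. The count of 16 thus depends in part on how genes were named. WT mouse 1 stood above the next WT mouse for Ucp1 (307 against 34.5 CPM), Cidea (64.5 against 10.7 CPM), Gk (35.7 against 8.29 CPM), Elovl6 (26.1 against 2.62 CPM), Elovl3 (18.5 against 1.18 CPM), Otop1 (10.6 against 1.86 CPM) and Lpl (596 against 461 CPM). V338Y mouse 1 stood above the next V338Y mouse for Ucp1 (3.98 against 0 CPM), Cidea (7.90 against 1.07 CPM), Elovl3 (0.645 against 0.108 CPM) and Lpl (451 against 354 CPM). The same kind of transcript thus set a mouse of each genotype apart, at levels that were higher in WT mouse 1.

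WT mouse 1 also had more Fam83d (4.86 against 2.97 CPM) and Pcna-ps2 (0.768 against 0 CPM), less Pcna (9.73 against 14.3 CPM) and a lower mean log2 level of neutrophil markers (-0.0851 against 0.608). Among fiber genes, Tnni1 was low in V338Y mouse 4 (0.541 against 3.86 CPM) and Myh2 high in V338Y mouse 2 (821 against 526 CPM). WT mouse 4 stood apart for Gm14085 (0.0846 against 0 CPM, a single count), Mrps14 (37.7 against 32.4 CPM) and the mean log2 level of erythroid markers (5.17 against 4.40). V338Y mouse 1 stood apart for Ighg2c (3.92 against 1.31 CPM). V338Y mouse 4 stood apart for the mean log2 level of seminal vesicle transcripts (4.88 against -0.97) and, by a small step, of fibroblast markers (7.09). What these mice share beyond their transcripts was not tested.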

How the results depend on the processing

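The count of 10 genes at 3 mo depended on the test and the mice. DESeq2 gave 66, the likelihood ratio test of edgeR 83, and leaving out the filter on low counts 33, and in each of these fits all 10 were among the calls. With each of the 8 mice left out in turn it was 3 to 14, without WT mice 1 and 3 it was 4, and without V338Y mice 2 and 3 it was 3. It was 10 with RLE size factors, filterByExpr or the 10 most counted genes left out, 9 with upper-quartile scaling, 15 with the robust fit, 13 with limma voom, 13 in the fit of all 15 mice and 8 without WT mouse 2 and V338Y mouse 4. With the replicate block it was 14, of which 5 were among the 10. The numbers share no animal and same-numbered mice did not deviate together. At 19 mo the 6 genes became 62 with DESeq2, 72 with the likelihood ratio test, 14 without a filter and 110 with the replicate block, and 2 to 7 with a mouse left out. For the interaction the count of 0 became 26, 36, 5 and 117 in the same order, and was 0 with each of the 15 mice left out. Eif3j2, Eif3j1 and Gm14085 were called under every alternative run at 3 mo, the other 7 genes in 9 to 11 of the 14 that left no single mouse out.

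Among single genes, 7 values changed sign, none of them called. With a mouse left out, Kdm5d ran from -0.1049 to 0.0051, Eif2s3y from -0.0714 to 0.0413, Myh4 from -0.011 to 0.0517 and Atf4 from -0.0869 to 0.0291 (log2). Without WT mice 1 and 3 Atf4 was at 0.0282, and without V338Y mice 2 and 3 Myh7 was at -1.3729, with edgeR adjusted p of 0.968 and 0.764. Of the other values of named genes 1718 kept direction and side of the threshold, 103 gained and 70 lost an adjusted p under 0.05. Why the counts move between tests was not tested. With 9253836 counts or more per mouse, genes at a few counts such as Fgf21 and Gdf15 were out of reach.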

Other observations

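The genes given here come from lists not described above and were not called by edgeR's quasi-likelihood test with all mice. Sgk1 and Nr4a3 were each called in 3 of the 14 alternatives that left no single mouse out. Among IGF, insulin and myostatin signalling (19 genes tested, 3 higher and 2 lower with an unadjusted p under 0.05), Igfbp5, which binds IGF, had a log2 fold change of 0.73 (SE 0.22, edgeR adjusted p = 0.397), Mstn, the muscle growth inhibitor myostatin, 0.37 (SE 0.12, edgeR adjusted p = 0.405) and Irs2, an adaptor of the insulin receptor, -0.47 (SE 0.11, edgeR adjusted p = 0.269). Sgk1, a kinase induced by glucocorticoids, had 0.56 (SE 0.13, edgeR adjusted p = 0.244). Nr4a3, an immediate early nuclear receptor, was at 1.34, 1.25, 0.849 and 1.19 CPM in V338Y mice and 1.79, 6.61, 1.92 and 7.78 CPM in WT mice. WT mice 2 and 4 were high for it, and the groups did not overlap. Its log2 fold change was -1.95 (SE 0.49, edgeR adjusted p = 0.302). Egr1, another immediate early gene, went the other way with 1.09 (SE 0.30, edgeR adjusted p = 0.365).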
